A study of Homo sapiens with 2 samples.

Results

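The expression of ISG15 and of the enzymes that attach it to proteins or take it off was described in lung fibroblasts with or without knockdown of periostin. The group was chosen by name, with earlier results of these data known. It holds 6 genes (ISG15, UBA7, UBE2L6, HERC5, HERC6 and USP18) of the 21739 genes that could be named on the arrays. They are also among the 16062 genes for which a ratio could be given. All 6 were named through the RefSeq accession that the scanner file gives for each spot, by 7 probes and 16 spots. The cells were MRC-5, a widely used fibroblast line from human fetal lung. One culture received an siRNA against periostin and the other a control siRNA, both at 10 nM for 48 h, and RNA of each was measured on 1 single-colour Agilent array. Since each condition was measured once, differences between cultures are unknown and no test was run. Beyond the transfection reagent, no other agent or genetic change is named for either condition, and all values come from this 1 cell line.

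ISG15 is a small protein built like a pair of joined ubiquitin folds, which is made after cells sense type I interferon and is then linked to lysines of newly made proteins. The linking follows the order of the ubiquitin system. UBA7 is the E1 enzyme that activates ISG15, UBE2L6 is the E2 enzyme that carries it, and HERC5 is the main E3 ligase in human cells, whereas HERC6, its close relative, does this work in the mouse. USP18 is the protease that cleaves ISG15 from its targets, and it also sits on the receptor chain IFNAR2 and damps the interferon signal. In fibroblasts, as in most cell types, the genes of this pathway are known as interferon-stimulated genes.

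The stretch in front of these genes is shown because interferon-stimulated genes often carry the interferon-stimulated response element, which factors activated by interferon bind. The letters searched were GAAANNGAAA, or TTTCNNTTTC on the other strand, with overlapping matches counted. RefSeq promoters of GRCh38.p14, which run from 250 bases before to 50 bases after a gene's start, were given for 4 of the 6 genes. Capitals mark the matched letters, and each sequence reads in the direction of its gene.
ISG15, chr1:1013247-1013546, plus strand: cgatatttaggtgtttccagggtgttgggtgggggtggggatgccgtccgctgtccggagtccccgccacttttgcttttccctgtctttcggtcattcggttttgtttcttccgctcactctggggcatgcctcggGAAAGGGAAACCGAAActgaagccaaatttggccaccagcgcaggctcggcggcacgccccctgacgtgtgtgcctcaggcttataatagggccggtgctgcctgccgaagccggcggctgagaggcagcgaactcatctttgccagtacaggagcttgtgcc
HERC5, chr4:88456869-88457168, plus strand: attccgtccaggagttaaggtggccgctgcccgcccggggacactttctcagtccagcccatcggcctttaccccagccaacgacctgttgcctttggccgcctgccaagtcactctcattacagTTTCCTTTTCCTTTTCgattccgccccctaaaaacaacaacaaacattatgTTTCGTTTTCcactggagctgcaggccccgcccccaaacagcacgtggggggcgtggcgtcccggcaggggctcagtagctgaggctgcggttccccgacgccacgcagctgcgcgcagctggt
HERC6, chr4:88378602-88378901, plus strand: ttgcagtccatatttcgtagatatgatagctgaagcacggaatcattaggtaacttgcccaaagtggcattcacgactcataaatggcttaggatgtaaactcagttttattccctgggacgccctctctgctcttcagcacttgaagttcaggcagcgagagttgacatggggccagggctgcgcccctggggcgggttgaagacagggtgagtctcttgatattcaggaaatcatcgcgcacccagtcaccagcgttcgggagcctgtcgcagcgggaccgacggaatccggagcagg

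ISG15 had 2 overlapping matches on the gene's own strand, starting 113 and 107 bases before the gene's start. HERC5 had 3 matches on the opposite strand, at 125, 119 and 74 bases before the start, of which the first pair overlaps. HERC6, and both promoters listed for UBE2L6, had no match, which says only that these letters are not in these windows. Thus 2 of the 4 genes held the letters, compared with 3.57% of all 35116 promoters, and both held at least 2 matches, compared with 0.259% of all promoters. Of 21 other interferon-stimulated genes with a promoter given, 16 (76.2%) held a match. In these lists a gene was counted if any of its promoters held a match, whereas the shares of all promoters count each promoter separately. The units thus differ, and a gene with several promoters has more chances of a match, so the shares are not directly comparable. A match is a description of the letters and does not show that a factor binds there.

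**Figure D1:**
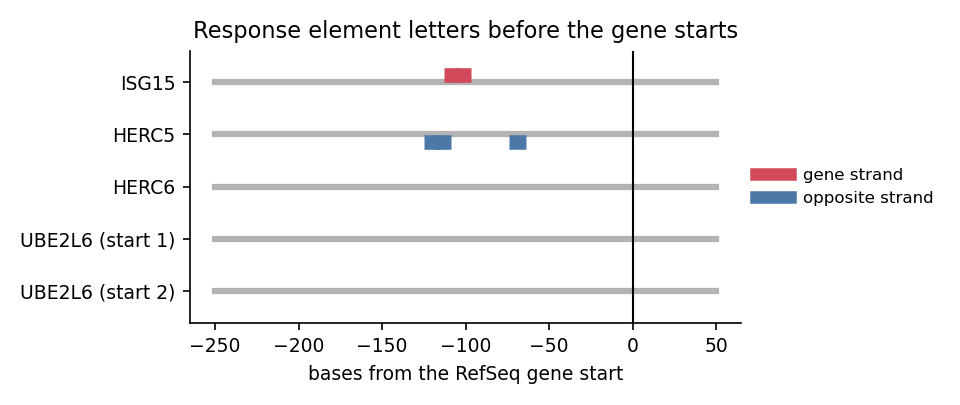
Positions of the response element letters in the RefSeq promoters of 4 genes of the ISG15 pathway, with bases from the gene start on the horizontal axis. Each grey line is 1 promoter, red blocks are matches on the strand of the gene and blue blocks are matches on the opposite strand. ISG15 and HERC5 hold matches between 125 bases before the start and the start, and HERC6 and the 2 UBE2L6 promoters hold none.

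POSTN, the gene targeted by the siRNA, had a signal of 2638 with control siRNA and 280 with periostin siRNA, which was 9.43-fold lower. Signals are processed spot intensities scaled so that the 75th percentile of both arrays was 377. They can be compared for 1 probe between arrays but not between probes. The ratio is the log2 of the signal with periostin siRNA over that with control siRNA, and over all genes its median was 0.06. The error given is the standard deviation (SD) over spots for a probe printed 10 times, and otherwise the error that the scanner software assigns to a single spot, combined over both arrays. Neither error covers the difference between cultures. The 7 probes of the pathway were well above background on both arrays, none carried an outlier flag, and 0 spots were saturated. In RNA from a whole culture, a change in RNA per cell and a change in the number of cells that express a gene cannot be told apart.

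**Figure D2:**
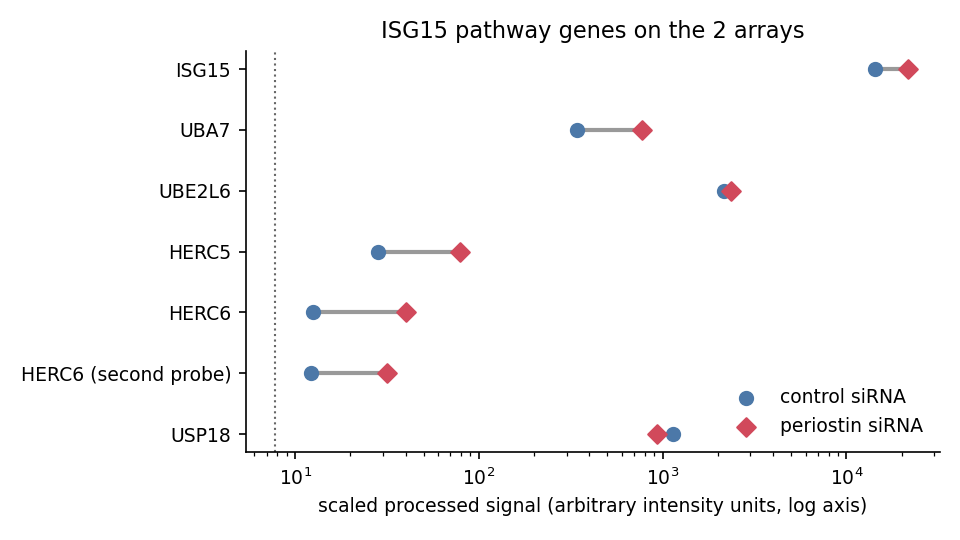
Scaled processed signal (intensity units, log axis) of the 7 probes of the ISG15 pathway with control siRNA (blue circles) and periostin siRNA (red diamonds), 1 array each. The dotted line marks the dimmest spot called well above background with periostin siRNA (7.77), and levels are to be compared along a row, not between rows. USP18 is the row in which the signal with periostin siRNA is the lower one.

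The modifier itself, ISG15, gave a signal of 14310 with control siRNA and 21712 with periostin siRNA. The signal was 1.52-fold higher, a log2 ratio of 0.60 ± 0.20 (error of 1 spot per array). Among probes printed 10 times with a like brightness, the SD between spots was 0.05 on the log2 scale. The ISG15 difference was larger than either error, but it did not reach the 3-fold threshold used by the study or a 2-fold threshold. A higher ratio than that of ISG15 was found for 16.9% of all genes. The named genes with the ratio nearest to ISG15 were KBTBD7, ZNF300 and COPB2-DT, each at 0.60, and 2126 of 14731 genes well above background on both arrays lay within the error of ISG15, so that likeness over 1 ratio picks out no partner.

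UBA7, the activating enzyme, gave 340 with control siRNA and 770 with periostin siRNA. This was 2.26-fold higher, a log2 ratio of 1.18 ± 0.20. Its signals lay far above background on both arrays, and the ratio stayed between 1.05 and 1.22 under the other ways of processing tried. The related E1 enzymes were not higher by this much. UBA1 and UBA3, which activate ubiquitin and NEDD8, had log2 ratios of 0.13 and 0.22. UBA2, which activates SUMO, gave -0.64, and UBA6, a second E1 for ubiquitin, gave -1.77 from a signal of 73.2 to 21.4, past 3-fold lower, which became -0.65 under the normexp background correction described with HERC6.

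UBE2L6, the E2 enzyme, gave 2158 with control siRNA and 2370 with periostin siRNA. The log2 ratio of 0.14 ± 0.20 was smaller than the error that the scanner software assigns to the spots. Among replicated probes of like brightness the SD between spots was 0.06, so whether a difference was detectable depends on the error taken. Under scaling on the median the ratio was 0.01. UBE2L3, the ubiquitin E2 most like UBE2L6, gave 0.08 by its brightest probe and 0.47 by its other probe, each ± 0.20. By the assigned spot error, the ratio was thus larger than its error for the E1 and within it for the E2.

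HERC5 was the only gene of the group printed 10 times. With control siRNA its spots ranged from 24.7 to 33.5, with a median of 28.5, and with periostin siRNA they ranged from 72.8 to 86.8, with a median of 78.3. All 10 spots were higher with periostin siRNA than the highest spot with control siRNA. These are spots of 1 RNA sample on each array and not replicate cultures. The mean signal went from 28.3 to 78.9, 2.79-fold higher, a log2 ratio of 1.48 ± 0.17 (SD over 10 spots), and single spots gave between 1.28 and 1.80.

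HERC6 was measured by 2 probes, each designed on a different transcript. The first gave 12.4 with control siRNA and 39.9 with periostin siRNA, 3.21-fold higher, a log2 ratio of 1.68 ± 0.29. The second gave 12.2 and 31.6, 2.60-fold higher, a log2 ratio of 1.38 ± 0.32. Both probes were higher with periostin siRNA, by ratios that differed by 0.31 with a combined error of 0.43, and they lay on both sides of the 3-fold threshold. With control siRNA the HERC6 signals were 1.65 and 1.61 times that of the dimmest spot called well above background, and that of HERC5 was 3.75 times this level. Under normexp, another way of subtracting background that raises every spot by an offset of 50, HERC5 gave 0.65 and HERC6 gave 0.44, whereas UBA7 gave 1.09 and ISG15 gave 0.55. The sizes of the HERC5 and HERC6 ratios, but not their sign, thus changed under this setting. An offset added to both signals shrinks the ratio of a dim probe by arithmetic alone and cannot reverse its sign. The parts of the offset and of the background subtraction were not separated, here or in the other normexp values.

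**Figure D3:**
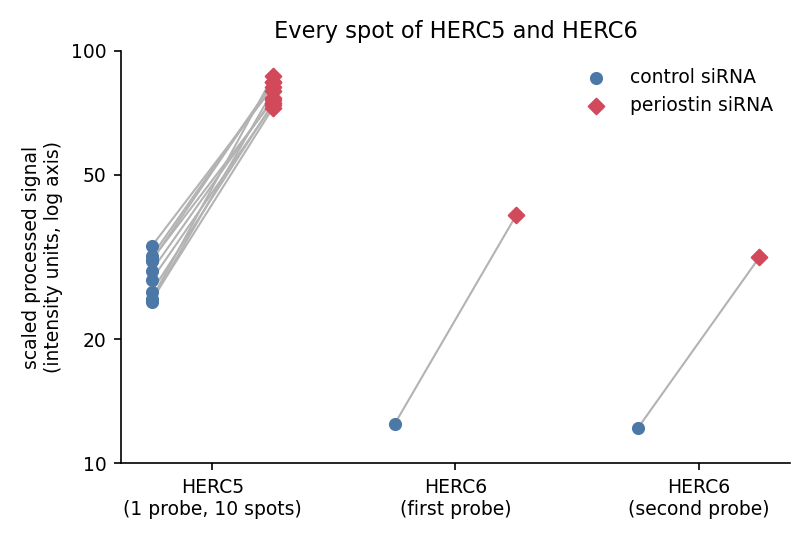
Scaled processed signal (intensity units, log axis) of every spot of HERC5 and HERC6, with control siRNA (blue circles) and periostin siRNA (red diamonds). Grey lines join the same spot position on both arrays. The 10 HERC5 spots lie between 24.7 and 33.5 with control siRNA and between 72.8 and 86.8 with periostin siRNA, and both HERC6 probes are higher with periostin siRNA.

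HERC5 and HERC6 lie next to each other on chromosome 4. The gene before HERC6, PPM1K, had a log2 ratio of -0.30, and the gene after HERC5, PIGY, which serves in the making of membrane anchors, had one of -0.72. HERC3, a relative that lies further along, had 12.5 with control siRNA and was not well above background with periostin siRNA. It was at least 1.60-fold lower, although its log2 ratio was -0.13 under normexp. The large HERC proteins HERC1 and HERC2 gave -0.01 and -0.18, although other probes of HERC2 ran from -1.09 to 0.79 ± 0.23. HERC4 gave -0.84 with all of its probes below 0. By the brightest probe of each gene, HERC5 and HERC6 were those of this family whose ratio lay above 0 by more than its error. Of 10 measured relatives of the E1, E2 and E3 enzymes, 0 were past 3-fold higher, compared with 3.37% of all genes. Past 3-fold lower there was 1, UBA6 (0 under normexp), compared with 2.75% of all genes. The median log2 ratio of these relatives was -0.17.

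USP18, the protease, gave 1135 with control siRNA and 937 with periostin siRNA. It was the only gene of the group with the lower signal after knockdown, at a log2 ratio of -0.28 ± 0.20, and this difference was 1.35 times the error of its spots. Among replicated probes of like brightness the SD between spots was 0.06. Of all genes, 73.2% had a higher ratio. The sign was below 0 under every processing tried, from -0.40 to -0.23. The probe may also read transcripts of the near-identical pseudogene USP41P, which no probe named through RefSeq measured.

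In order of the log2 ratio the genes ran HERC6, HERC5, UBA7, ISG15, UBE2L6 and USP18. UBA7 and ISG15 differed by 0.58 with a combined error of 0.29, the widest step. The other neighbours in this order differed by 0.61 to 1.62 times their combined error, with HERC6 and HERC5 the closest pair, so that most single steps of the order lie near the error. Under normexp the order began with UBA7, and HERC6 came after ISG15. Of the 6 genes, 5 had a ratio above 0, as did 54.5% of all genes, and the median was 0.89. Past 3-fold higher there was 1 gene, HERC6, by 1 of its probes, compared with 3.37% of all genes, and past 3-fold lower there was 0, compared with 2.75%. Past 2-fold higher there were 3 genes, UBA7, HERC5 and HERC6, compared with 7.97% of all genes (1 gene, UBA7, under normexp), and past 2-fold lower there was 0, compared with 6.42%.

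**Figure D4:**
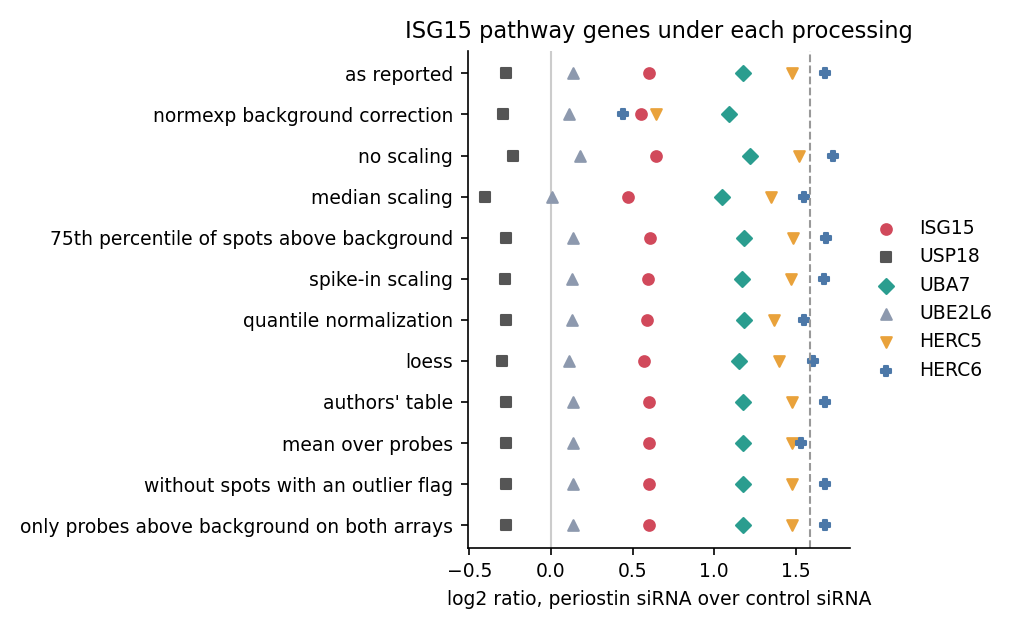
Log2 ratio of signal with periostin siRNA over control siRNA (horizontal axis) for the 6 genes of the ISG15 pathway under the reported processing and 11 alternatives (rows), 1 symbol per gene. The grey line is no difference and the dashed line is 3-fold higher. USP18 lies below 0 and UBA7 above 1 in every row, and HERC5 and HERC6 move to 0.65 and 0.44 under the normexp correction.

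The other genes that respond to interferon gave larger ratios than most of the ISG15 pathway. Like the pathway genes, they were listed with earlier results of these data known. Of 24 such genes measured, 22 had a ratio above 0, compared with 54.5% of all genes. Past 3-fold higher there were 12 (7 under normexp), compared with 3.37% of all genes, and past 3-fold lower 0, compared with 2.75%. Their median log2 ratio was 1.58. The range ran from -0.20 for IFIT5 to 4.91 for BST2, a membrane protein that tethers viruses to the cell, whose signal with control siRNA was 10.8 and whose ratio was 2.47 under normexp. MX1, a GTPase that blocks viruses, went from 409 to 3425. IFIT1, which binds foreign RNA, went from 2850 to 10812. All 24 genes had a higher ratio than USP18, although IFIT5 at -0.20 ± 0.20 and SAMD9 at -0.15 ± 0.29 lay within its error. Of the 24, 22 had a higher ratio than UBE2L6, 19 than ISG15, 16 than UBA7, 13 than HERC5 and 11 than HERC6. These ranks changed under normexp. There HERC5 (0.65) and HERC6 (0.44) lay below the median of the other interferon-stimulated genes (1.10), and UBA7 (1.09) lay near it. The 16 of these genes with the response element letters had a median of 1.58 (range -0.20 to 4.91), the 4 measured genes without them had one of 2.48 (range 1.38 to 3.43), and the other 4 had no promoter given.

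Of the 6 factors known to switch on ISG15, 5 had ratios above 0, compared with 54.5% of all genes. Past 3-fold in either direction there were 0, compared with 3.37% of all genes higher and 2.75% lower. IRF7, which amplifies interferon production, and IRF9, a DNA-binding factor of the interferon response, went from 1056 to 2514 and from 840 to 2017, log2 ratios of 1.25 ± 0.20 and 1.26 ± 0.20. STAT2 gave 0.34 and IRF1 gave -0.14. IRF3 gave 0.40 by its brightest probe and 0.06 by its other probe, each ± 0.20, and 0.02 under normexp. The median of these 6 factors was 0.50, or 0.46 with the mean over probes.

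**Figure D5:**
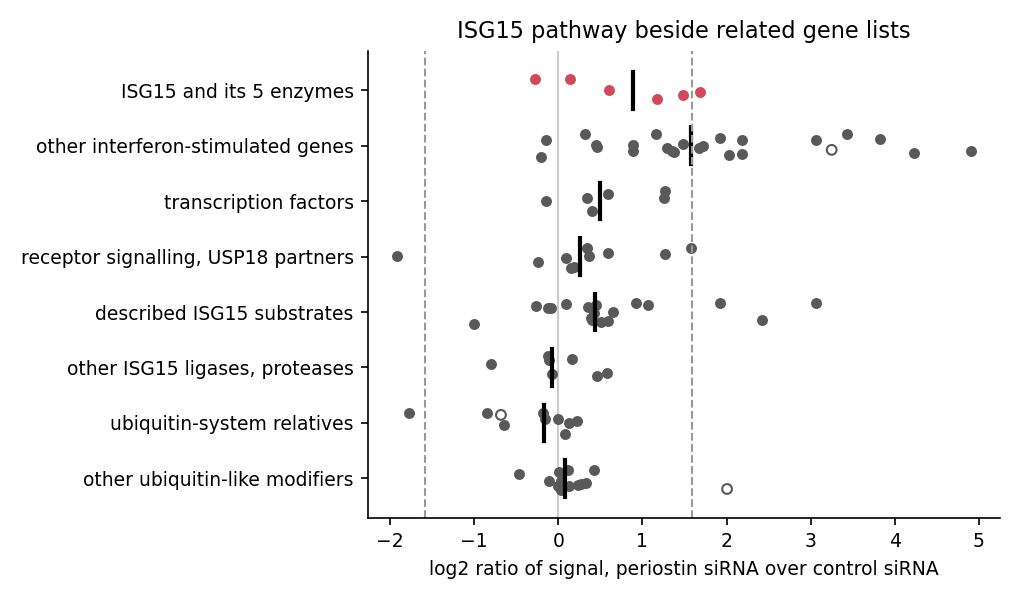
Log2 ratio of signal with periostin siRNA over control siRNA (horizontal axis) for each gene of the ISG15 pathway (red) and of 7 related lists (grey), 1 point per gene. Open circles are bounds, for genes well above background on 1 array alone, black bars are medians, and dashed lines are 3-fold lower and higher. The pathway median is 0.89, that of other interferon-stimulated genes is 1.58, and those of the relatives and of other ubiquitin-like modifiers are -0.17 and 0.08 (-0.05 under scaling on the median).

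Around USP18, the receptor chains IFNAR1 and IFNAR2 gave 0.15 and 0.36, and the kinases JAK1 and TYK2 gave 0.10 and 0.18. The SOCS brakes on cytokine signalling moved apart. SOCS1, an inhibitor of JAK kinases, went from 389 to 1165, a log2 ratio of 1.58, while SOCS3, an inhibitor of cytokine receptors of the IL-6 type, went from 2256 to 598, a ratio of -1.92. Of the 10 genes of this list, 0 were past 3-fold higher, compared with 3.37% of all genes. Past 3-fold lower there was 1, SOCS3, compared with 2.75% of all genes. The median of the list was 0.26. SOCS1 lay just under 3-fold.

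The other enzymes that can add or remove ISG15 had a median of -0.08. Of the 7 measured 0 were past 3-fold in either direction, compared with 3.37% of all genes higher and 2.75% lower. ARIH1 and TRIM25, ligases also described for ISG15, gave 0.58 and 0.16, and the protease USP13 gave -0.80. USP2 was not well above background on either array. Among 14 other ubiquitin-like modifiers the median was 0.08, or -0.05 under scaling on the median. Past 3-fold higher there was 1 gene of this list, compared with 3.37% of all genes. That gene was UBD, also known as FAT10 and induced by inflammatory cytokines, which was not well above background with control siRNA and gave 30.3 with periostin siRNA, at least 4.02-fold higher, although its log2 ratio was 0.47 under normexp. The ubiquitin gene UBB gave 0.02, NEDD8 gave 0.43, and UFM1, the lowest, gave -0.47.

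Among 18 proteins described as carrying ISG15, 14 had transcripts with a ratio above 0, compared with 54.5% of all genes. Past 3-fold higher there were 3, compared with 3.37% of all genes, and past 3-fold lower 0, compared with 2.75%. The median of the list was 0.44. The 3 were MX1, IFIT1 and IFIH1, the last a sensor of viral RNA that went from 125 to 668, and all 3 are interferon-stimulated genes themselves. RIGI, a second RNA sensor, gave 1.07. HIF1A, the oxygen-responsive transcription factor, was the lowest, with a mean of 10 spots that went from 1768 to 882. Conjugates of ISG15 were not measured, and RNA levels do not show them.

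Of 9 interferon genes named on the arrays, 7 were not well above background on either array, among them IFNB1, IFNA2 and IFNG. IFNL2, whose probe may also read its near copy IFNL3, gave 30.3 and 35.6, and IFNE was not well above background with control siRNA and at least 2.36-fold higher, from a signal of 17.8 with periostin siRNA, although its log2 ratio was 0.29 under normexp. The fibroblast label was checked with 8 markers, all well above background on both arrays, with summed signals of 351191 and 316250. Their log2 ratios ran from -0.54 for COL1A1 to 0.83 for LUM, with a median of -0.10. Sums are given to compare the arrays and not the marker groups, since signals cannot be compared between probes. Of 10 immune cell markers, 4 were well above background with control siRNA and 6 with periostin siRNA. Their summed signals were 118 and 127, their ratios ran from -0.83 for CSF1R to 1.58 for ITGAM (-0.27 and 0.40 under normexp), and 4, among them MS4A1, HLA-DRA and CLEC4C, were not well above background on either array. The 3 endothelial markers summed to 124 and 128, with PECAM1 not well above background. CDH5 gave -0.09, and VWF gave 0.15 by its brightest probe and 0.79 by its other probe. The 4 epithelial markers summed to 72.1 and 195, mostly owing to EPCAM at 34.6 and 135, whose log2 ratio was 1.97, or 1.08 under normexp. SFTPC gave 0.66, or 0.21 under normexp, while CDH1 and KRT5 were not well above background on either array. The part of the EPCAM difference in the ISG15 pathway ratios was not tested.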

How the data were processed

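Single-colour Agilent arrays (SurePrint G3 Human GE 8x60K v2) of MRC-5 cells, 1 per condition, were analysed. The authors deposited scanner files whose processed intensity values had been background-subtracted by Feature Extraction (11.5.1.1 per the file headers, 12.0.3.1 per the labels), with a design annotated on hg19. Their table of normalized intensities, also deposited, was checked and equalled the scanner intensity times 3.65 (control siRNA) and 3.54 (periostin siRNA) for the 49697 probes printed once.

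Control spots were left out. The log2 of each of 58717 intensities minus the 75th percentile of its array (372 and 383) was averaged over the spots of a probe, and the probe with the highest mean log2 signal stood for a gene. A gene well above background on 1 array alone was given as a bound, against its own signal on the other array or the dimmest spot called well above background there (7.55 and 7.77), whichever was higher. Spots well above background made up 58.0% and 58.9%, and the number of arrays limits the precision. Through RefSeq accessions 65.1% of the spots were named. GRCh38.p14 served for names, gene order and promoters only. The SD between spots was 0.12 over 667 probes printed 10 times, and that at like brightness was taken over the 100 such probes nearest in brightness.

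The members and lists were chosen with earlier results of these data known. All members were named with every probe, as were genes of the fixed lists with the extremes of each, POSTN, and the 3 genes nearest to ISG15 by ratio, while neighbours on the chromosome were added after their values were seen. The alternatives were the normexp correction (offset 50, on the median spot brightness), no scaling, scaling on the median, on spots well above background or on spike-in probes, quantile normalization, loess (span 0.3), the authors' table, the mean over probes, filters on outlier flags and on dim probes, and thresholds of 2-fold and 4-fold. Python 3.11.15 with numpy 2.4.6, pandas 2.3.3 and matplotlib 3.10.9, and R 4.3.3 with limma 3.58.1, were used. The scripts were tested on simulated data. Protein sequences were not analysed here, and the values of some list genes are not reported here.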

Additional observations from a re-analysis of the deposited data

How the results depend on the processing

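All 6 genes kept the direction of their ratio under the 11 alternatives, although UBE2L6 was at 0.01 under scaling on the median. The alternatives are not independent checks, since several could hardly change these values. The authors' table is the scanner intensity times a constant per array, and each scaling moves all genes by a common amount. Both filters left all 6 ratios as reported, and the mean over probes changed HERC6 alone. The median log2 ratio of the 6 genes, 0.89 as reported, was 0.50 under the normexp correction and 0.76 under scaling on the median, and that of the other interferon-stimulated genes, 1.58, was 1.10 and 1.45. The count of genes past 3-fold higher, 1 as reported, was 0 under normexp, scaling on the median, quantile normalization, the mean over probes and a 4-fold threshold, and 3 at a 2-fold threshold. Past 2-fold higher, the counts were 1 for these genes and 530 over all genes under normexp, compared with 3 and 1280 as reported. The median scaling moved the median of all genes by -0.13, and the share of higher genes among those past 3-fold was 46.3% compared with 55.1%. Under normexp it was 42.9%, and the counts over all genes went from 541 higher and 441 lower to 143 and 190. The cause of these shifts was not tested. No paired analysis was possible because control siRNA and periostin siRNA were each measured on 1 array, so that leaving out a replicate could not be done either.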
